A study of Homo sapiens with 16 samples.

Results

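The genes described here are 9 members of the transforming growth factor beta (TGF-β) pathway, taken by name from 42364 genes listed in any of the deposited tables: the ligands TGFB1, TGFB2 and TGFB3, the latency protein LTBP1, the receptors TGFBR1, TGFBR2 and TGFBR3, the feedback inhibitor SMAD7 and the target gene CCN2. All 9 were listed in the 3 bulk RNA tables and in both single-cell matrices. The kidney organoids of these groups were grown from UM77-2, a human embryonic stem cell line. The study asked how organoids change with culture time and after TNFα, an inflammatory cytokine, and repeated part of the TNFα work in other lines. No genetic change was introduced, and all groups described here share UM77-2. Set 1 held 1 bulk library of untreated organoids on each of days 21, 25 and 29, and set 2 held 2 libraries on each of these days. The TNF set held organoids of day 25 after 24 h or 48 h with 5 ng/ml TNFα or with vehicle control (VC), 1 library each. For single cells, whole wells of day 24 were dissociated after 24 h with TNFα or VC, again 1 library each.

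TGF-β is secreted in a latent complex in which the mature dimer stays bound to its own propeptide, and latent TGF-β binding proteins such as LTBP1 tether that complex to the extracellular matrix until integrins or proteases release it. Active ligand is gathered by the co-receptor TGFBR3 (betaglycan), binds the kinase receptor TGFBR2 and recruits TGFBR1, which phosphorylates SMAD proteins, and SMAD7 is induced by the signal and shuts the receptors off. In the kidney the pathway is best known for matrix production and scarring, and CCN2 (connective tissue growth factor) is a widely used read-out of it that is also controlled by the YAP and TEAD factors.

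The bases before the start sites of CCN2, TGFBR3 and LTBP1 are shown because CCN2 had the largest difference of the 9 genes across days, TGFBR3 the largest after TNFα in bulk RNA and LTBP1 the largest rise there. Each run is the 250 bases before the start in RefSeq on GRCh38.p14, read 5′ to 3′ on the gene's strand, and capitals mark matches to the motifs named below. Positions count from 0 at the start site, with -1 for the base before it. The stretches lie at chr6:131951373-131951622 on the minus strand for CCN2, chr1:91886152-91886401 on the minus strand for TGFBR3 and chr2:32946703-32946952 on the plus strand for LTBP1.
CCN2: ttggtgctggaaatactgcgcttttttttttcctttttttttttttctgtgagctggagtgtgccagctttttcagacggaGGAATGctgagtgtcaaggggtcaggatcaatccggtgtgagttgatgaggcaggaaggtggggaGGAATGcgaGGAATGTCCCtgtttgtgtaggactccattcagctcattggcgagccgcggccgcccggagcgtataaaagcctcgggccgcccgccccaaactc
TGFBR3: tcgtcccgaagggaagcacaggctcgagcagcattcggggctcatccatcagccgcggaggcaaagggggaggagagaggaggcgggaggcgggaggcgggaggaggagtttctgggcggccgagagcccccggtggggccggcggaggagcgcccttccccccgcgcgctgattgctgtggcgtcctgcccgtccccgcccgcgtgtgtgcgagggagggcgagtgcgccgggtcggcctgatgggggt
LTBP1: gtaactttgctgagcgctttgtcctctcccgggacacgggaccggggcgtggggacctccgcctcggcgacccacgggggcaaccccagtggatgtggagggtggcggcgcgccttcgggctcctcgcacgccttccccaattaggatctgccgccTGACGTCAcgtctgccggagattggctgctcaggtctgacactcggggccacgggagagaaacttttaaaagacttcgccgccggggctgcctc

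The motifs were searched on both strands from 250 bases before to 50 bases after each start. GGAATG, the core bound by TEAD factors, stood 3 times in the CCN2 stretch, at -169, -104 and -95. The TGFB2 window also held it, on the other strand from -185 to -180. Of 35116 windows of this length, 14.0% held it at least once and 0.128% held it 3 or more times. A match to the NF-κB motif overlapped the last of these copies in CCN2, from -95 to -86, and 5.91% of windows held such a match. LTBP1 had TGACGTCA, the cyclic AMP response element, at -94, which 1.85% of windows held, and an NF-κB match of GGAGTGTCCC from 0 to 9. GTCTAGAC, the SMAD palindrome, stood in 0.202% of windows and in none of the 9 genes' windows. The TGFBR3 stretch held no match to any of the 4 motifs, and its RefSeq start lies 20184 bases from the outermost start in GENCODE 44. These are matches of letters and were not measured as binding.

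Bulk values are log2(CPM + 1), where CPM is the read count scaled for library size, and differences between them are on that scale. Libraries of sets 1 and 2 held 19073609 to 30282025 reads and those of the TNF set 49948198 to 59246286 reads, so each value of the 9 genes in sets 1 and 2 and the TNF set rests on at least 323 reads. A gene was called at a limma p-value adjusted over all genes of the table under 0.05. The sources used here do not say whether the 2 libraries of a day in set 2 came from separate cultures, so p-values measure the spread between these libraries. The podocyte marker genes, 10 of 10 listed in each table, summed to 8405 CPM in the first day 29 library of set 2 and 4012 CPM in the second, which makes these the most unequal pair. Of the immune markers, 2 of 6 were listed in set 2 and in the TNF set and 1 of 6 in set 1, and PTPRC, CD68, LYZ and TYROBP were not. TGFB1, TGFB2, TGFB3, LTBP1 and CCN2 share exon sequence with a gene on the other strand (HNRNPUL1, TGFB2-AS1, TGFB3-AS1, ENSG00000285577 and LINC01013), and TGFB2-OT1 overlaps TGFB2 on its own strand, so their counts are uncertain to that extent.

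Between day 21 and day 29, the 3 ligands, LTBP1 and SMAD7 rose, TGFBR2 and CCN2 fell, and TGFBR1 and TGFBR3 did not pass the test. The count is 5 higher and 2 lower of 9, where 10.0% of all 27650 genes were called higher and 8.33% lower. The largest rise was that of TGFB2, 2.36-fold, and the largest fall that of CCN2, 4.21-fold. In bulk RNA, fewer cells of a type and less RNA per cell cannot be told apart.

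TGFB2 (chromosome 1, 218345336 to 218444619), a ligand with roles in kidney development, had values of 4.27 and 4.24 on day 21, 4.87 and 4.601 on day 25, and 5.42 and 5.58 on day 29. The 3 days did not overlap. The rise to day 29 was 1.24 (SE 0.108, n = 2 per day; limma, adjusted p = 0.000304), of which 0.48 fell between days 21 and 25 (limma, adjusted p = 0.0473) and 0.76 between days 25 and 29 (limma, adjusted p = 0.0215).

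TGFB3 (chromosome 14, 75958097 to 75983011), the third ligand, stood at 4.01 and 4.03 on day 21, 4.17 and 4.29 on day 25, and 4.86 and 4.90 on day 29. Its rise of 0.86 (SE 0.0894; limma, adjusted p = 0.000619) came mostly after day 25, by 0.66 (limma, adjusted p = 0.0196), and the difference from day 21 to day 25 was 0.21 (limma, adjusted p = 0.266). TGFB1 (chromosome 19, 41301587 to 41353922), the ligand most studied in fibrosis, had 4.74 and 5.02, then 5.18 and 5.22, then 5.43 and 5.29. All later libraries exceeded both of day 21, and the rise by day 29 was 0.48, or 1.39-fold (SE 0.105; limma, adjusted p = 0.0173). That call was lost without the first day 21 library (0.34, limma adjusted p = 0.113) and without the first day 29 library (0.41, limma adjusted p = 0.0574).

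LTBP1 (chromosome 2, 32946953 to 33399509) had 7.19 and 7.37 on day 21, 7.55 and 7.51 on day 25, and 8.01 and 8.20 on day 29. The days stood in that order without overlap, and the rise by day 29 was 0.82, or 1.76-fold (SE 0.0908; limma, adjusted p = 0.000811). Between days 25 and 29 it was 0.57 (limma, adjusted p = 0.0278).

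The kinase receptor TGFBR2 (chromosome 3, 30606601 to 30694142) fell on each later day, with 6.29 and 6.41 on day 21, 5.83 and 5.73 on day 25, and 5.49 and 5.37 on day 29. It fell by 0.57 to day 25 (limma, adjusted p = 0.0088) and by 0.92 to day 29 (SE 0.0803; limma, adjusted p = 0.0003), which is 0.528 of its day 21 level. The difference between days 25 and 29 was -0.35 (limma, adjusted p = 0.0728). TGFBR1 (chromosome 9, 99104038 to 99154192), the receptor kinase that phosphorylates SMAD2 and SMAD3, lay between 6.60 and 6.80 in all 6 libraries, and its difference from day 21 to day 29 was -0.11 (SE 0.0763; limma, adjusted p = 0.4).

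TGFBR3 (chromosome 1, 91680343 to 91906335) stood at 9.07 and 8.91 on day 21, at 8.91 in both day 25 libraries, and at 8.72 and 7.58 on day 29. The difference of -0.84 from day 21 to day 29 (SE 0.3; limma, adjusted p = 0.0953) rests on the second day 29 library. Without it the difference was -0.27 (limma, adjusted p = 0.113), and without the first day 29 library it was -1.41 (limma, adjusted p = 5.75e-05). The second day 29 library is also the one with the lower sum of podocyte markers; the part of this in the TGFBR3 value was not tested.

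SMAD7 (chromosome 18, 48919853 to 48950965) had 6.23 and 6.32 on day 21, 6.77 and 6.91 on day 25, and 6.98 and 6.86 on day 29. Most of the rise of 0.65, or 1.57-fold (SE 0.079; limma, adjusted p = 0.00125), was present by day 25, at 0.57 (limma, adjusted p = 0.00823). Days 25 and 29 overlapped and differed by 0.08 (limma, adjusted p = 0.67).

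CCN2 (chromosome 6, 131948176 to 131951372), whose upstream stretch carries the 3 GGAATG copies, declined at each step. It had 9.14 and 9.43 on day 21, 8.25 and 8.08 on day 25, and 7.50 and 6.92 on day 29, with no overlap between days. CCN2 fell by 1.12 to day 25 (limma, adjusted p = 0.0143) and by 2.08 to day 29 (SE 0.181; limma, adjusted p = 0.000304), while SMAD7, also a TGF-β target, rose over the same days.

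Day 25 shares its libraries between the day 25 to 21 and the day 29 to 25 comparisons, and day 21 and day 29 are likewise used in 2 comparisons each. From day 21 to day 25, TGFB2 and SMAD7 were higher and TGFBR2 and CCN2 lower, 2 and 2 of 9, where 3.39% and 1.99% of all genes were called. From day 25 to day 29, TGFB2, TGFB3 and LTBP1 were higher and CCN2 lower, 3 and 1 of 9, against 1.25% and 0.825% of all genes. Both counts depend on single libraries. Without either the second day 21 library or the second day 25 library, no gene of the 9 was called between days 21 and 25, and without the first day 21 or first day 25 library 1 was. Without any one of the day 21 or day 25 libraries, or without the second day 29 library, none of the 9 was called between days 25 and 29, against 6 without the first day 29 library.

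**Figure D1:**
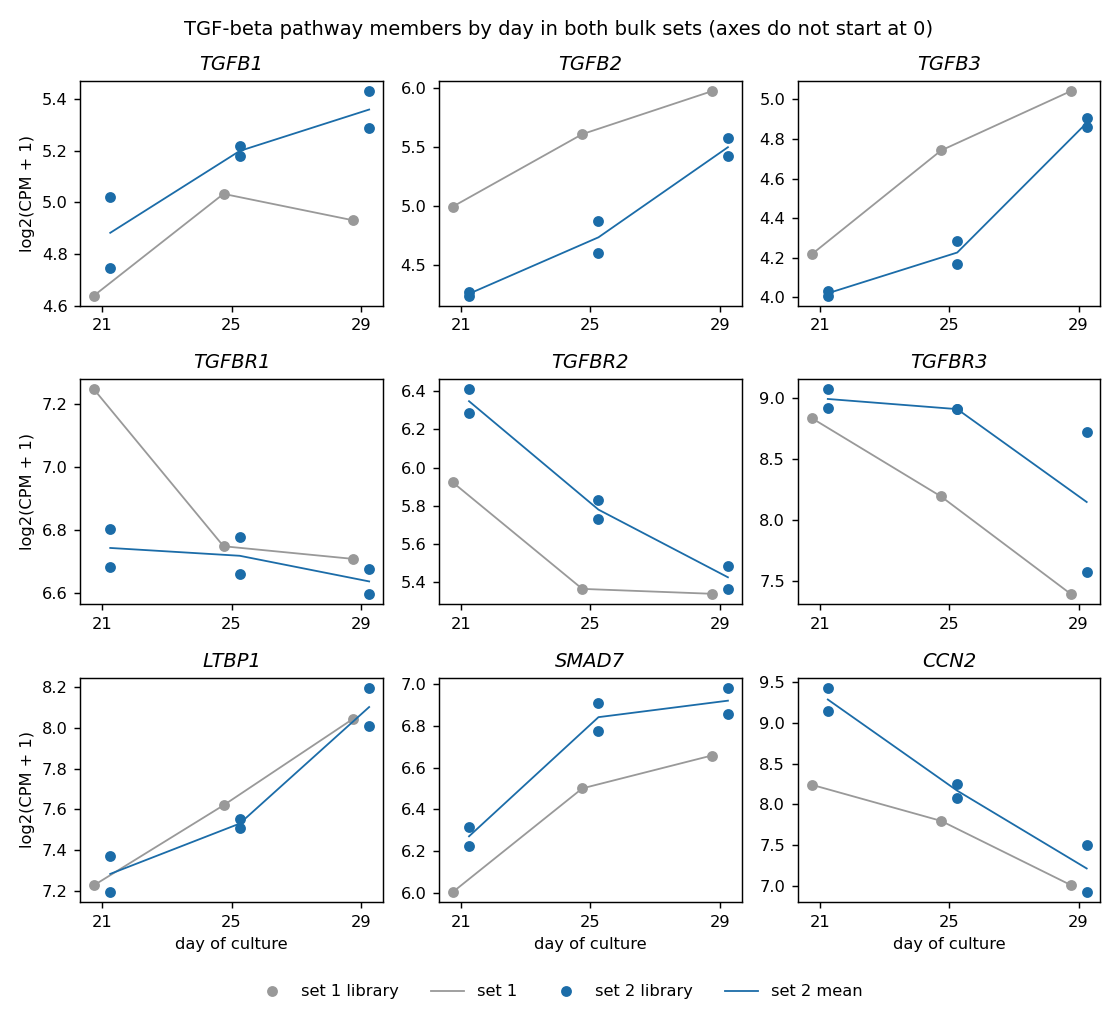
Each panel plots log2(CPM + 1) of 1 gene (y axis, not starting at 0) against the day of culture (x axis), with each point 1 library of set 1 or set 2. TGFB1, TGFB2, TGFB3, LTBP1 and SMAD7 stand higher on day 29 than on day 21 in both sets, CCN2 and TGFBR2 stand lower, and TGFBR3 spreads from 7.58 to 8.72 between the 2 day 29 libraries of set 2.

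Set 1 was normalized apart and has 1 library per day, so its values carry no test. Its differences from day 21 to day 29 were 0.29 for TGFB1, 0.98 for TGFB2, 0.82 for TGFB3, 0.82 for LTBP1 and 0.65 for SMAD7. The receptors differed by -0.54 for TGFBR1, -0.58 for TGFBR2 and -1.43 for TGFBR3, and CCN2 by -1.23. TGFBR3 went from 8.83 to 8.19 and 7.40 over the 3 days there, without the day 25 plateau of set 2.

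Cell type markers moved with the days as well. Of the 10 podocyte markers, 6 fell between day 21 and day 29 and none rose (median -1.06), and of the 8 stromal markers 6 rose and none fell (median 1.47). Summed podocyte markers in set 2 were 11881 and 12458 CPM on day 21, 9944 and 10151 CPM on day 25, and 8405 and 4012 CPM on day 29. Stromal markers summed to 4103 and 3695 CPM, then 8420 and 8536 CPM, then 10579 and 12775 CPM. The part of these markers in the differences of the 9 genes was not tested.

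Set per kilobase of exon, which allows levels of different genes to be compared, CCN2 had the highest level in set 2 at 51.4 to 295 CPM per kilobase. Next came TGFBR3 at 22.1 to 62.4, LTBP1 at 19.8 to 39.8 and SMAD7 at 18.7 to 31.8 CPM per kilobase, whose ranges overlap. TGFBR1 lay at 12.0 to 13.9, TGFB1 at 7.90 to 12.9 and TGFBR2 at 5.88 to 12.3 CPM per kilobase. The lowest levels were those of TGFB2, 2.96 to 7.72, and TGFB3, 2.89 to 5.54 CPM per kilobase.

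After TNFα, TGFB1, TGFB2 and LTBP1 rose and TGFBR2 and TGFBR3 fell, while TGFB3, TGFBR1, SMAD7 and CCN2 did not pass the test. This is 3 higher and 2 lower of 9, where 8.42% of all 21093 genes were called higher and 10.8% lower. The model had treatment and time as terms, so the 24 h and 48 h pairs stand in for replicates, with 1 residual degree of freedom. The spread of each gene was therefore taken largely from that of other genes. The SEs and p-values below do not measure the spread between replicate cultures. TGFBR3 had the largest difference of the 9 and LTBP1 the largest rise.

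TGFBR3 was at 8.73 with VC and 7.62 with TNFα at 24 h, and at 8.30 and 6.87 at 48 h. Both TNFα libraries lay under both VC libraries, and the fitted difference was -1.27 (SE 0.0718; limma, adjusted p = 6.76e-10), a 2.41-fold fall. TGFBR2 had 5.87 and 5.54 at 24 h and 5.71 and 5.40 at 48 h in the same order, and fell by 0.32 (SE 0.0701; limma, adjusted p = 0.00296). TGFBR1 ranged from 6.01 to 6.19 over the 4 libraries, with a difference of 0.08 (limma, adjusted p = 0.524).

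LTBP1 was at 6.78 with VC and 7.38 with TNFα at 24 h, and at 6.96 and 7.45 at 48 h. Its groups did not overlap, and it rose 1.46-fold, by 0.55 (SE 0.0625; limma, adjusted p = 4.22e-06). Among the ligands, TGFB1 went from 5.14 to 5.44 at 24 h and from 5.17 to 5.52 at 48 h, a rise of 0.32 (SE 0.0735; limma, adjusted p = 0.00398). TGFB2 went from 3.99 to 4.33 and from 4.47 to 4.86, a rise of 0.37 (SE 0.0866; limma, adjusted p = 0.0053). The TNFα library of TGFB2 was higher at each time, but its 24 h TNFα value lay below its 48 h VC value.

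TGFB3 had 3.70 with VC and 3.60 with TNFα at 24 h and 4.09 and 3.67 at 48 h, a difference of -0.26 (limma, adjusted p = 0.101). SMAD7 had 6.47 and 6.57, then 6.43 and 6.72, a difference of 0.19 (limma, adjusted p = 0.057), which passed with edgeR on the recovered reads (adjusted p = 0.00884). CCN2 had 9.80 and 9.65 at 24 h and 9.36 and 9.37 at 48 h, with a fitted difference of -0.07 (limma, adjusted p = 0.521), so that its values differed more between the times than between the treatments. Without the time term in the model, LTBP1 and TGFBR3 alone remained called, 2 of 9.

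**Figure D2:**
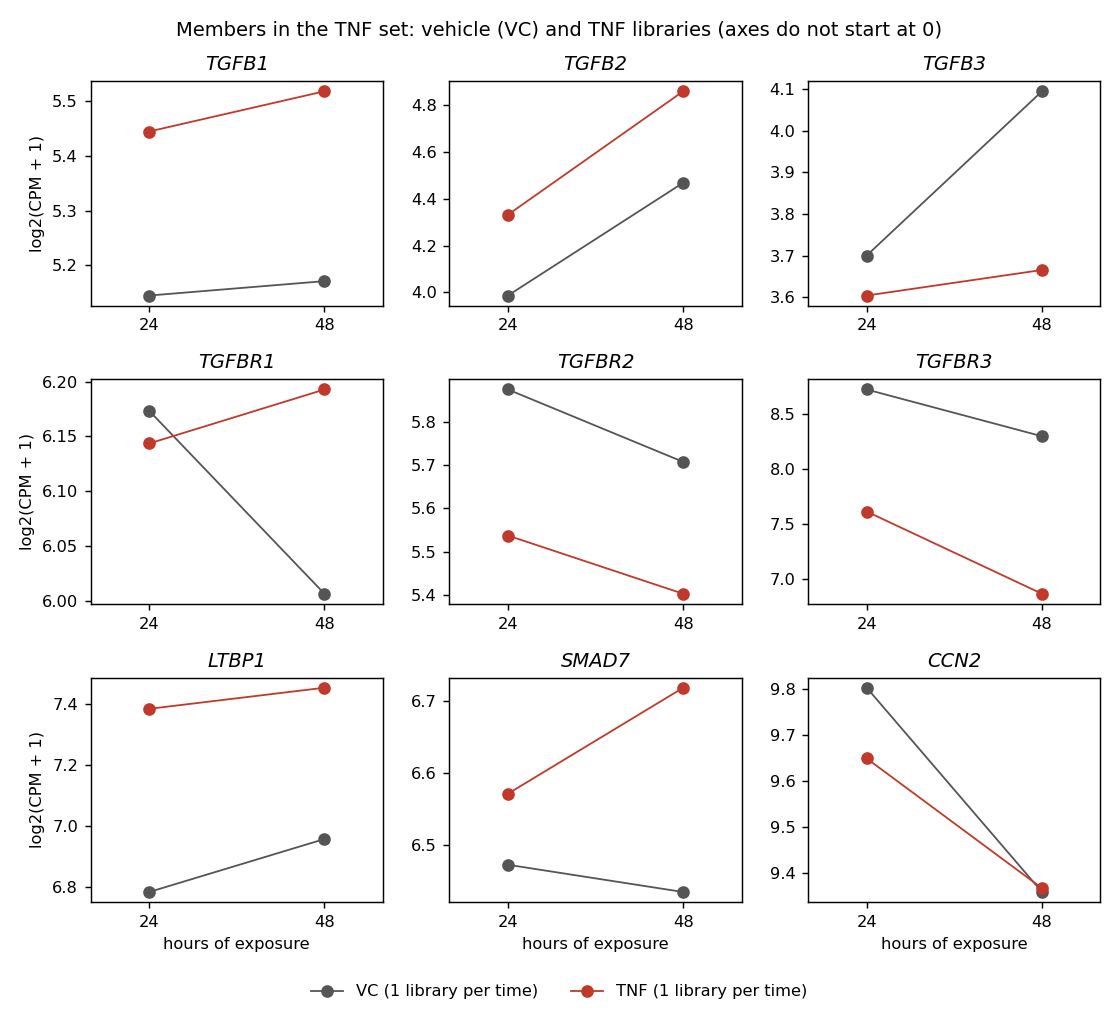
Each panel plots log2(CPM + 1) of 1 gene (y axis, not starting at 0) against hours of treatment (x axis, 24 and 48), with each point 1 library and the colour showing VC or TNFα. TGFBR3 lies 1.11 lower with TNFα at 24 h and 1.43 lower at 48 h, and LTBP1 lies 0.60 and 0.50 higher.

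All 10 podocyte markers fell with TNFα (median -0.83), and so did all 10 proximal tubule markers. Summed podocyte markers were 7439 and 6935 CPM with VC and 4511 and 3360 CPM with TNFα, and summed stromal markers 5503 and 6885 CPM with VC and 6896 and 7297 CPM with TNFα. The 2 listed immune markers summed to between 6.19 and 13.3 CPM over the 4 libraries. The part of these markers in the TGFBR3 and TGFBR2 differences was not tested in bulk RNA, and the single-cell levels below give the values within a class.

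Beyond the 9 genes, 6 lists of the pathway with 99 genes were counted whole. Between day 21 and day 29, 12 of 24 TGF-β responsive genes were higher and none lower, with a median of 0.55, where the median of all genes was -0.02. For all 6 lists by day, the shares to compare are 10.0% of all genes called higher and 8.33% lower. ACTA2, smooth muscle actin, rose by 3.05 (limma, adjusted p = 0.000127) and TGFBI, a matrix protein, by 2.55 (limma, adjusted p = 0.000208). CCN2, itself a target, moved the other way. Stromal markers rose over the same days, as given above, and their part in this was not tested.

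Of the genes of latency and activation, 8 of 15 were higher and 2 lower by day 29, with a median of 0.35. FBN1, the fibrillin that anchors latent complexes, went from 6.9985 and 6.72 on day 21 to 8.95 and 9.39 on day 29, a rise of 2.31 (limma, adjusted p = 0.000113). LRRC32, which holds latent TGF-β at the cell surface, rose by 1.98 (limma, adjusted p = 6.94e-05). LTBP2, a relative of LTBP1 that does not bind latent TGF-β, fell by 0.93, from 3.91 and 4.40 to 3.16 and 3.28 (limma, adjusted p = 0.00737).

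Among other ligands of the family, 7 of 16 were higher and 3 lower by day 29, with a median of 0.15. INHBA, the activin A subunit, went from 2.10 and 1.75 on day 21 to 6.001 and 5.71 on day 29, the largest rise of the 6 lists at 3.93 (limma, adjusted p = 4.08e-05). BMP7, a ligand needed for nephron progenitors, fell by 1.33 (limma, adjusted p = 0.000243). Of the secreted antagonists 7 of 12 were higher and none lower, with a median of 0.75, and FST, which binds activins, rose by 1.62 (limma, adjusted p = 0.000104).

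Family receptors gave 4 of 11 higher and 1 lower (median 0.24), with ENG, an endothelial and stromal co-receptor, up by 1.05 (limma, adjusted p = 0.003). SMADs and intracellular regulators gave 6 of 21 higher and 1 lower (median 0.11). PMEPA1, a feedback inhibitor induced by TGF-β, went from 3.77 and 3.48 to 6.001 and 6.16, a rise of 2.46 (limma, adjusted p = 4.33e-05).

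With TNFα, 14 of 24 TGF-β responsive genes were higher and 1 lower (median 0.34, all genes -0.03). Of all genes, 8.42% were called higher and 10.8% lower, which holds for each list below. CDKN1A, a cell cycle inhibitor, rose by 0.98 (limma, adjusted p = 5.01e-07), and NOX4, an NADPH oxidase, fell by 0.71 (limma, adjusted p = 9.77e-05). JUNB, an immediate early factor, rose by 0.91 (limma, adjusted p = 1.15e-06). It was at 6.09 with VC and 7.29 with TNFα at 24 h, and at 8.07 and 8.69 at 48 h. Its 24 h TNFα value thus lay below its 48 h VC value. In the latency and activation list 7 of 15 were higher and 4 lower, with a median of 0.12. LTBP2 had the largest rise of the 6 lists, from 2.83 and 2.89 with VC to 6.32 and 6.12 with TNFα, which is 3.36 (limma, adjusted p = 3.79e-14). It was 1 of the 2 genes of that list that fell between day 21 and day 29.

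The secreted antagonists were 3 of 12 higher and 6 lower with TNFα, with a median of -0.19, and BMPER rose by 0.76 (limma, adjusted p = 2.08e-05) while LEFTY1 fell by 0.79 (limma, adjusted p = 0.000115). Of 15 other ligands tested, 3 were higher and 3 lower (median -0.04), of 11 family receptors 1 and 1 (median -0.06), and of 21 SMADs and regulators 4 and 1 (median -0.00). BAMBI, a pseudoreceptor that blocks signalling, was among the last and rose by 0.56 (limma, adjusted p = 0.000113). The counts of the family receptors are close to the shares of all genes, 8.42% and 10.8%.

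**Figure D3:**
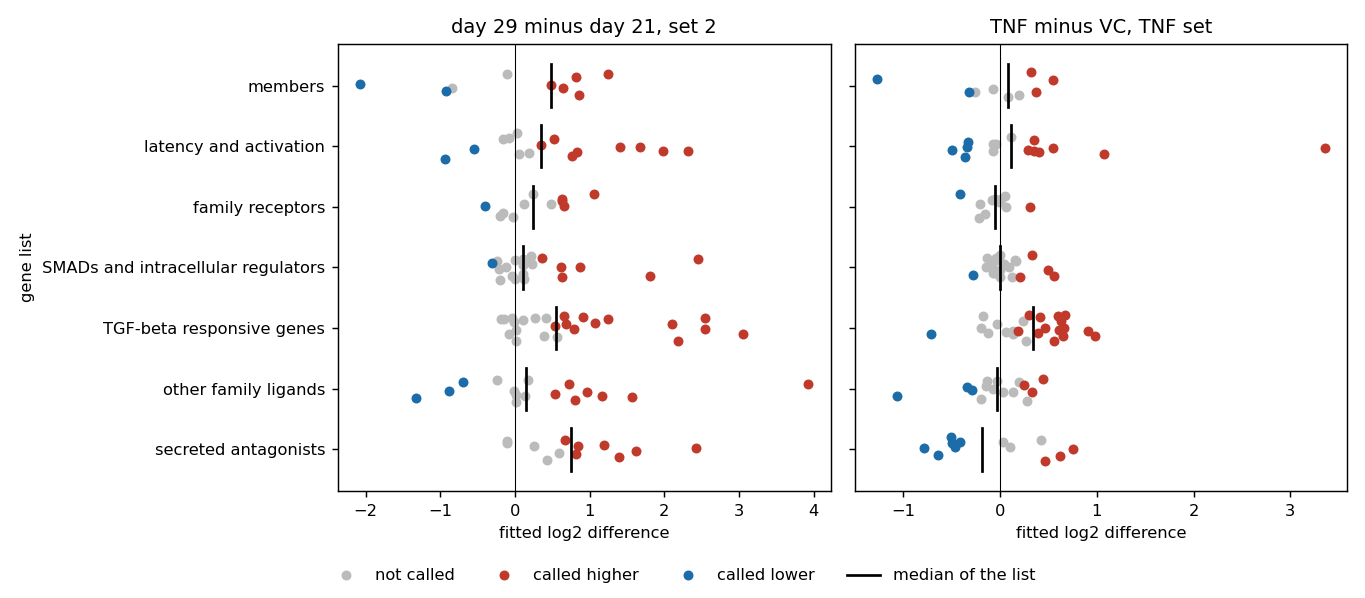
Points show the fitted log2 difference (x axis) of each gene of the 9 and of the 6 pathway lists (rows), on the left for day 29 against day 21 in set 2 and on the right for TNFα against VC. INHBA at 3.93 is the farthest point on the left and LTBP2 at 3.36 the farthest on the right.

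The single-cell libraries show which cells carried the 9 transcripts. After a minimum of 500 genes, 11906 of 12494 VC barcodes and all 23160 TNFα barcodes were kept, with medians of 6358.5 and 2599 UMIs per cell, and 82 barcodes occurred in both libraries. The 9 genes and the pathway lists were left out of the clustering, and 7 classes were named from separate markers: podocyte-like, proximal tubule-like, stromal-like, proliferating-like, neuronal-like, neural progenitor or glial-like (glial-like from here on) and muscle-like. The proximal tubule-like class also carried distal tubule markers, which summed to 1175 CPM in VC against 445 CPM for the proximal markers. Levels are CPM, here the UMIs a gene had in a class relative to the UMIs of all genes there, and with 1 library per condition no test was possible. Intervals are 95% Poisson intervals that cover counting error only, and doublets were kept because the doublet caller, which marked 2 VC cells and 1 TNFα cell, did not work on these data.

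In the VC library, CCN2, TGFBR3, TGFB1 and TGFBR2 were each highest in the 1396 podocyte-like cells among the 7 classes. CCN2 reached 571 CPM there (559 to 583), 6.73 times the stromal-like level of 84.8 CPM (80.02 to 89.8). Its other levels ran from 81.4 CPM in muscle-like cells over 53.4 and 26.4 CPM in proliferating-like and proximal tubule-like cells to 13.9 CPM in neuronal-like and 10.7 CPM in glial-like cells. TGFBR3 was at 371 CPM (361 to 381) in podocyte-like cells and 9.53 to 21.0 CPM in the other 6 classes, with a ratio of 17.7 (13.7 to 23.3) to the next named class. A small unnamed cluster led by C1orf56 stood above these other classes, with 77.6 CPM (60.3 to 98.4) of TGFBR3 and 201 CPM of CCN2. Podocyte markers summed to 9609 CPM in podocyte-like cells, 1947 CPM in the cluster led by C1orf56 and 514 CPM in stromal-like cells of this library.

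TGFB1 differed less between classes, at 45.4 CPM (41.9 to 49.0) in podocyte-like and 36.7 CPM (33.6 to 40.04) in stromal-like cells. It was at 24.1 CPM in proliferating-like cells and at most 9.53 CPM in the remaining 4 classes. TGFBR2 was at 45.8 CPM (42.3 to 49.4) in podocyte-like and 35.9 CPM (32.1 to 39.9) in glial-like cells, 2.57 CPM in neuronal-like cells and 8.32 to 13.9 CPM elsewhere.

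TGFB2 and TGFB3 had another distribution. TGFB2 was highest in an unnamed cluster led by SPOCK3, CYP26A1 and MYF6, at 94.5 CPM, then in muscle-like cells at 55.1 CPM, stromal-like cells at 31.2 CPM and proliferating-like cells at 31.1 CPM, with 4.15 CPM in podocyte-like cells. TGFB3 was sparse everywhere, at 22.1 CPM in that same cluster, 9.95 CPM in muscle-like cells and 1.79 CPM in proximal tubule-like cells. The muscle-like and proliferating-like levels of TGFB3 did not differ beyond counting error (ratio 1.59, 0.966 to 2.56).

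LTBP1 reached 84.4 CPM in an unnamed cluster led by SPRR2F, NPY, PLP2 and AMHR2, and among the named classes 47.1 CPM in stromal-like, 34.6 CPM in proliferating-like and 34.2 CPM in podocyte-like cells. The kinase receptor TGFBR1 was the most even of the 9, at 61.8 CPM (57.7 to 66.1) in neuronal-like cells and 21.9 to 36.5 CPM in the other 6 classes. SMAD7 was highest in proximal tubule-like cells at 34.3 CPM (31.7 to 37.1), followed by stromal-like cells at 26.8 CPM (24.2 to 29.7), and lowest in glial-like cells at 7.64 CPM.

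**Figure D4:**
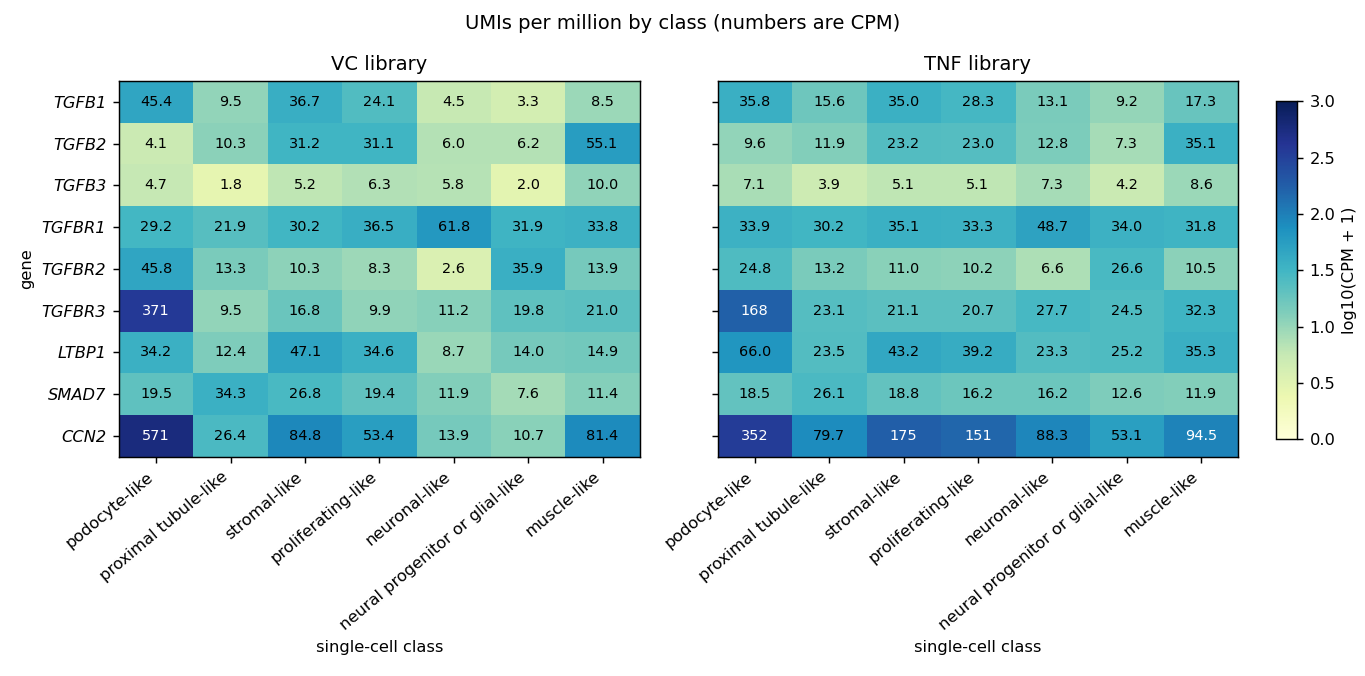
The colour scale is log10(CPM + 1) of each of the 9 genes (rows) in each of the 7 named classes (columns), with CPM printed in the cells, for the VC library on the left and the TNFα library on the right. CCN2 at 571 CPM and TGFBR3 at 371 CPM in podocyte-like cells are the highest values with VC, and with TNFα they are 352 and 168 CPM.

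The genes whose levels were most like each of the 9 were ranked by Pearson correlation of log2(CPM + 10) over 26 profiles (13 classes or clusters in 2 libraries) among 10348 genes. The profiles of a library share its depth. For TGFBR3 the closest were DDN (0.966), MPP5 (0.962) and FRMD1 (0.959), and for CCN2 the closest included VAMP5 (0.934) and EFNB1 (0.919). TGFBR2 was most like AFAP1L2 (0.901), TGFB1 most like RRAS (0.912), and TGFB2 most like CALCRL (0.957) and EPHA3 (0.919). TGFBR1 stood with PAK2 (0.911), while the best match was lower for LTBP1 (PTGFRN, 0.837), SMAD7 (NIPSNAP2, 0.829) and TGFB3 (NANOS1, 0.812).

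In podocyte-like cells, the TNFα library had less TGFBR3, TGFBR2 and CCN2 and more LTBP1 than the VC library, and the direction of TGFB2 depended on the clustering. TGFBR3 went from 371 to 168 CPM (ratio 0.452, 0.432 to 0.472), TGFBR2 from 45.8 to 24.8 CPM (0.542, 0.479 to 0.612) and CCN2 from 571 to 352 CPM (0.617, 0.597 to 0.638). LTBP1 went from 34.2 to 66.0 CPM (1.93, 1.73 to 2.14), which made podocyte-like cells its highest class in that library. TGFB2 went from 4.15 to 9.63 CPM (2.32, 1.72 to 3.18), on 59 UMIs with VC, but its direction turned with each library clustered alone (0.653, 0.393 to 1.05), and with the highest doublet scores left out it was at 8.26. The 2 libraries filled the clusters within this class unequally. At a resolution of 0.5, 1 of its 3 clusters held 1 VC cell and 704 TNFα cells. That cluster had all 10 podocyte markers, and its top genes included TNFRSF4, CXCL14 and CCL2. Another of the 3, with CCN2 among its top genes, held 522 of 1416 VC and 1079 of 4387 TNFα podocyte-like cells. Whether these clusters differ in cell type or in state was not tested, nor was their part in the CCN2 ratio. With the TNFα library clustered alone 1195 cells were podocyte-like, against 4385, and 12108 of its 23160 cells fell in 1 unnamed cluster. In that clustering the podocyte-like ratios were 0.640 for TGFBR3, 0.680 for TGFBR2, 0.736 for CCN2 and 2.34 for LTBP1. Past 1.5-fold, 2 of the 9 were higher and 3 lower, where 14.0% and 8.18% of genes with at least 50 UMIs were. TGFB3 lay just inside at a ratio of 1.497. Each named class had less of its own markers with TNFα, from 9609 to 5059 CPM in podocyte-like cells. The sums went from 12146 to 7539 CPM in neuronal-like, 17122 to 9594 in muscle-like and 4889 to 2700 in proliferating-like cells. Proximal tubule-like cells went from 445 to 233, stromal-like from 4538 to 2965 and glial-like from 3223 to 1977 CPM. The part of this in the ratios was not tested.

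CCN2 was lower with TNFα in podocyte-like cells and higher in the other 6 named classes. With 1 library per condition this contrast could not be tested. The higher ratios were 6.34 (5.38 to 7.49) in neuronal-like, 4.95 in glial-like, 3.02 in proximal tubule-like, 2.83 in proliferating-like, 2.06 (1.92 to 2.21) in stromal-like and 1.16 (0.990 to 1.36) in muscle-like cells. The small unnamed cluster led by C1orf56 was also lower, from 201 to 140 CPM (0.699, 0.571 to 0.858). Podocyte markers in that cluster summed to 1947 CPM with VC and 1620 CPM with TNFα. The other unnamed clusters were higher, at ratios from 1.41 to 4.22. In CPM, stromal-like cells went from 84.8 to 175 and neuronal-like cells from 13.9 to 88.3. Over all cells together CCN2 was at 114 CPM with VC and 158 CPM with TNFα. The shares of the classes differed too: podocyte-like cells were 11.7% of VC and 18.9% of TNFα cells, and neuronal-like cells 14.5% and 9.02%. The part of these shares was not tested. Bulk CCN2 differed by -0.15 at 24 h, where 1 library of each treatment was measured. Per the study's methods, bulk RNA came from isolated spheroids, here of day 25, and single cells from whole wells of day 24. The bulk and single-cell values are thus of unlike material.

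TGFBR3 was higher in the 6 named classes other than podocyte-like cells, with ratios of 2.46 in neuronal-like, 2.42 in proximal tubule-like, 2.10 in proliferating-like, 1.54 in muscle-like, 1.25 in stromal-like and 1.24 (0.974 to 1.57) in glial-like cells. In the same clustering, the small unnamed cluster led by C1orf56 was at 0.702 (0.505 to 0.981). With each library clustered alone the stromal-like ratio turned to 0.611. Podocyte markers moved in the same way, with a summed ratio of 0.526 in podocyte-like cells, 2.64 in neuronal-like, 3.47 in glial-like, 1.32 in stromal-like and 2.92 in proximal tubule-like cells. Set against these markers, TGFBR3 was 4.22 CPM per 100 CPM of podocyte markers with VC and 3.94 with TNFα in neuronal-like cells, and CCN2 was 5.24 and 12.6. In podocyte-like cells the same quantity was 3.86 and 3.31 for TGFBR3 and 5.94 and 6.96 for CCN2. For CCN2 it was 11.7 and 12.1 in proximal tubule-like, 15.8 and 10.1 in muscle-like and 8.95 and 12.8 in glial-like cells. Proliferating-like cells had 13.0 and 19.5, and stromal-like cells 16.5 and 25.8. For TGFBR3 it was 16.6 and 5.91 in glial-like, 4.25 and 3.51 in proximal tubule-like and 4.07 and 3.46 in muscle-like cells. Proliferating-like cells had 2.41 and 2.67, and stromal-like cells 3.28 and 3.12. Free RNA from podocytes was not separated from RNA of the cells, and its part was not tested.

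**Figure D5:**
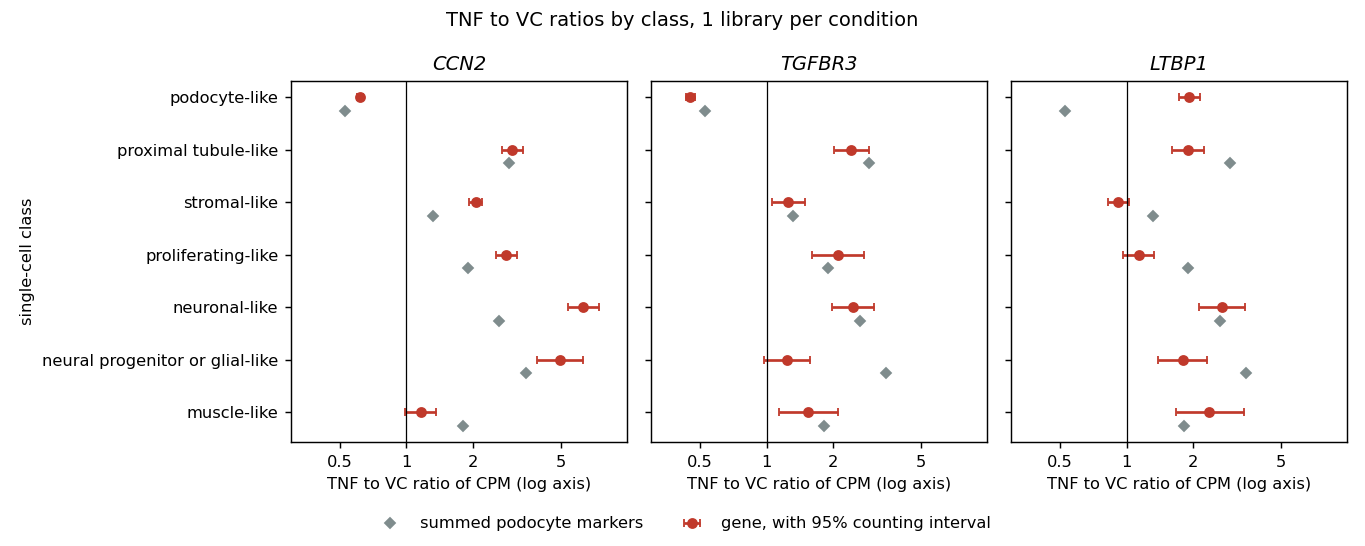
Each panel shows the TNFα to VC ratio of CPM (x axis, log scale) of 1 gene in each class (y axis), with bars for 95% counting intervals and grey diamonds for the summed podocyte markers of the class. For CCN2 the podocyte-like point is at 0.617 and the neuronal-like point at 6.34, and for TGFBR3 they are at 0.452 and 2.46 beside podocyte marker ratios of 0.526 and 2.64.

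LTBP1 was higher with TNFα in 6 of the 7 named classes. Beside that of podocyte-like cells, its ratios were 2.695 in neuronal-like, 2.36 in muscle-like, 1.90 in proximal tubule-like and 1.80 in glial-like cells. They were 1.13 (0.967 to 1.33) in proliferating-like and 0.917 in stromal-like cells. In the unnamed cluster led by SPRR2F, its highest with VC, LTBP1 was lower, from 84.4 to 61.2 CPM (0.725, 0.596 to 0.877). The unnamed cluster led by SPOCK3 was also lower (0.758, 0.620 to 0.923), and the other unnamed clusters had LTBP1 ratios from 0.879 to 3.22. Summed stromal markers moved too, from 289 to 870 CPM in neuronal-like, 408 to 1134 CPM in muscle-like, 238 to 700 CPM in proximal tubule-like and 375 to 673 CPM in glial-like cells. They went from 944 to 1193 CPM in podocyte-like, 1747 to 1655 CPM in proliferating-like and 4538 to 2965 CPM in stromal-like cells, and their part in the LTBP1 ratios was not tested. Over all classes, 27 of 62 ratios with enough UMIs were past 1.5-fold, 23 higher and 4 lower. The neuronal-like class had 6 of 9 higher and none lower against 11.3% and 8.97% of its genes, and the proximal tubule-like class 5 of 9 higher and none lower against 11.1% and 5.50%. Glial-like cells had 4 of 8 higher and none lower against 7.58% and 3.37%, muscle-like cells 3 of 9 higher and 1 lower against 14.9% and 6.34%, proliferating-like cells 2 of 9 higher and none lower against 6.41% and 5.18%, and stromal-like cells 1 of 9 higher and none lower against 8.14% and 8.12%. SMAD7 in stromal-like cells was at a ratio of 0.701.

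LTBP2, the list gene with the largest bulk rise after TNFα, was in the TNFα library at 24.2 CPM (22.01 to 26.6) in podocyte-like cells, on 433 UMIs, against 1.48 CPM with VC, on 21 UMIs. In the other 6 classes LTBP2 was at 0.440 to 1.42 CPM with VC and 2.10 to 7.60 CPM with TNFα. JUNB was highest in stromal-like and podocyte-like cells of the TNFα library, at 130 and 115 CPM, from 43.5 and 29.4 CPM with VC.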

How the data were processed

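Bulk RNA was sequenced from 13 libraries of kidney organoids (set 1, set 2 and the TNF set, grouped by the sample labels), and single-cell RNA from 2; 1 of the 16 samples was not analysed here. The bulk tables that the authors deposited hold log2 values. Per the study's methods, STAR aligned the reads, HTSeq counted them over genes, and voom normalized the counts. The values themselves are log2(CPM + 1), with 0.5 added to each count, and 100% of them came back as whole reads within 0.01 reads. Sets 1 and 2 and the TNF set were normalized separately, so levels were compared only within a table. The submitters' processing notes name STAR 2.7.8a, HTSeq 0.11 and Cell Ranger 2.1.1, and whether the counting used strand is not stated. The single-cell files are UMI counts deposited as filtered matrices of 36601 genes.

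The 9 genes and all lists were chosen with earlier results of these data known. limma 3.58.1 under R 4.3.3, with a variance trend, was fitted to the deposited log2 values of all genes: 1 mean per day in set 2 (3 residual degrees of freedom), and treatment and time in the TNF set (1 residual degree of freedom). Tests were two-sided with Benjamini-Hochberg adjustment over all genes of the table. Day 29 against day 21 gave 2778 higher and 2303 lower genes, and TNFα against VC gave 1776 and 2285. On the recovered reads, edgeR 4.0.16 (quasi-likelihood, TMM) called 3234 higher and 2318 lower for the first and 2322 and 2133 for the second. DESeq2 1.42.0, other scalings and filters, and each set 2 library left out were further alternatives. The text names all 9 genes, and of each list at most 2 higher and 2 lower genes with the largest differences.

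Cells with over 500 genes were clustered with leidenalg 0.10.2 at a resolution of 0.25 on 30 components, without the 108 genes of the lists, after the libraries were aligned. A cluster was named from at least 3 markers, unless another marker list had more genes among the cluster's top genes. For that reason the cluster led by DKK1 and MSX1, with 8 proliferating markers, stayed unnamed. Low UMIs per cell with no own marker among the top genes also left a cluster unnamed. Gene positions and exon lengths came from GENCODE 44 on GRCh38. 1 gene is not reported here. The limma, edgeR and DESeq2 fits of day 29 against day 21 and of TNFα against VC were tested on simulated data. For the days, limma recovered 84% of simulated log2 changes of 1 and 5% of those of 0.5. For TNFα it recovered 100% and 36%. Of its calls there, 1.11% and 8.7% were genes left unchanged. Smaller changes than 1 can thus be missed. The simulation changed well-counted genes only, 100 for each size of change. Every gene had the same spread beyond counting error, and time had no effect. Far more genes were called in the real data, so these rates describe the simulated settings only.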

Additional observations from a re-analysis of the deposited data

Results flagged for a closer look

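The results below had opposite directions in 2 places under the same contrast, and none of these differences was tested. In bulk RNA, TGFBR1 differed between TNFα and VC by -0.030 at 24 h and 0.19 at 48 h, and CCN2 by -0.15 and 0.0082, with 1 library for each treatment and time. TGFB1 differed between days 29 and 25 by -0.10 in set 1, which has 1 library per day, and by 0.16 in set 2.

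In the single-cell libraries, 4 genes were past 1.5-fold in opposite directions in podocyte-like cells and in another class. CCN2 was at 0.617 in podocyte-like and 6.34 in neuronal-like cells, TGFBR3 at 0.452 and 2.46, and TGFBR2 at 0.542 and 2.57. Summed podocyte markers were at 0.526 and 2.64 in the same classes, and their part was not tested. The neuronal-like TGFBR2 ratio rests on 35 UMIs with VC. TGFB2 went the other way, at 2.32 in podocyte-like and 0.637 in muscle-like cells, but with each library clustered alone its podocyte-like ratio was 0.653, and the contrast in direction was lost. Smaller contrasts around 1 included TGFB1, at 0.790 in podocyte-like and 2.92 in neuronal-like cells, and TGFBR1, at 1.16 and 0.788.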

How the results depend on the processing

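Of the 9 genes, 7 were called between days 21 and 29, and 6 to 7 with 1 library of set 2 left out. Between days 21 and 25, 4 were called, and 0 to 4 with 1 library left out. Between days 25 and 29, 4 were called, 0 to 6 with 1 library left out, and 1 (TGFB3) without the variance trend. With TNFα, 5 were called, and 2 without the time term. SMAD7 was added with TNFα by edgeR (adjusted p = 0.00884), median centring (limma, 0.0259) and the mean filter (limma, 0.0442), which made 6, and TGFBR2 was added between days 25 and 29 by median centring (limma, 0.0427) and the mean filter (limma, 0.0437), which made 5. The sample labels of set 2 name the libraries of each day Org1 and Org2, and the reported fit did not pair them by these numbers. Same-numbered libraries deviated with positive correlations of 0.143, 0.0753 and 0.270 over 18572 genes. Whether they share a culture was not tested. With the replicate block, 8 of the 9 were called between days 21 and 29, where TGFBR3 was added (limma, adjusted p = 0.0447), and 4 in each of the other day comparisons. TGFBR3 was also added by median centring (limma, adjusted p = 0.0232).

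With each single-cell library clustered alone, 5 of the 9 genes kept their highest class and LTBP1 was no longer highest in stromal-like cells, so that 0 genes were, against 1. The names changed as well. With the VC library alone, the cluster with 7 proximal tubule markers was left unnamed, so SMAD7 could not keep its class. The cluster led by SPOCK3, unnamed before, was named from early nephron markers. A changed highest class is therefore not in itself a changed level. TGFB2 in podocyte-like cells was then at a ratio of 0.653 in place of 2.32, and TGFBR3 in stromal-like cells at 0.611 in place of 1.25. The cause was not tested. The podocyte-like ratios of CCN2 (0.736), TGFBR3 (0.640), TGFBR2 (0.680) and LTBP1 (2.34) kept their direction. With the highest doublet scores left out, a choice made after seeing the data, the TGFB2 ratio was 8.26.

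Counts over all genes moved by over 1.5 times under some settings. Median centring gave 2408 higher and 4667 lower genes between days 21 and 29 (2778 and 2303 in the reported fit) and 971 and 1281 between days 21 and 25 (937 and 549). For TNFα, DESeq2 gave 1198 and 970, and 637 and 673 were called without the time term (1776 and 2285 in the reported fit). For days 25 to 29, edgeR gave 834 and 502, DESeq2 812 and 466, the mean filter 655 and 467, the replicate block 676 and 442, median centring 666 and 567, and no variance trend 129 and 80, against 346 and 228. Without either day 25 library, limma called none of those, with 3383 and 3715 genes at an unadjusted p under 0.05. With 1 library left out, 1398 to 2964 genes were higher and 960 to 2453 lower between days 21 and 29, 191 to 1336 and 50 to 896 between days 21 and 25, and 0 to 1192 and 0 to 822 between days 25 and 29, so the shares of all genes called move with single libraries. TNFα has 1 library per time and each single-cell condition 1 library, so replicate error was not measured there.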

Other observations

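Other genes of the pathway were also unequal between the single-cell classes. Activin subunit gene INHBA was at 30.1 CPM in stromal-like and 19.4 CPM in proliferating-like cells with VC, and 36.1 and 17.9 CPM with TNFα, and at most 2.95 CPM in the other classes with VC. FBN1 was at 150 CPM in stromal-like cells with VC and 119 CPM with TNFα, and LRRC32 at 10.1 and 7.87 CPM. BMP7 was highest in podocyte-like cells, at 122 CPM with VC and 93.9 CPM with TNFα, followed by proximal tubule-like cells at 57.6 and 53.4 CPM.

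PMEPA1, a feedback inhibitor of the pathway like SMAD7, was at 89.0 CPM in stromal-like cells with VC and 47.0 CPM with TNFα, while in podocyte-like cells it was at 17.4 and 36.7 CPM. FST was at 105 CPM in stromal-like and 114 CPM in muscle-like cells with VC, and 92.4 and 86.3 CPM with TNFα. BAMBI was at 40.7 and 43.8 CPM in stromal-like cells. These are levels of 1 library each, with no test.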
